A study of Mus musculus with 12 samples.

Results

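The mitochondrial ribosomal protein genes were taken from the table of read counts by their symbols, Mrpl or Mrps followed by a number and at most 1 further letter. This rule found 78 of 25239 genes, spread over 17 chromosomes, of which chromosome 11 carried 11. RNA from brain and liver was sequenced in male C57BL6/J wild type (WT) mice aged 24 months. The heat stress mice had been kept at 40 ± 0.5 °C and 60 ± 5% relative humidity during 3 h of each of 15 days, as a model of recurring heat waves, and the other mice are labelled as controls. Each of the 4 groups (control brain, heat stress brain, control liver, heat stress liver) held 3 libraries, 12 in all, and age, strain and genotype were shared by all of them. Small pieces of frozen tissue were used, and the brain region they came from is not given in the sources used here. Neither is it given whether a brain and a liver library with the same number came from the same mouse.

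Mitochondria keep a small genome of their own and translate its messenger RNAs, which encode core subunits of the respiratory chain, on a dedicated ribosome. The RNA of that mitoribosome is encoded in the mitochondrion, whereas all of its proteins are encoded in the nucleus, made in the cytosol and imported, so that the output of both genomes has to be matched. In brain and liver, tissues with a high demand for oxidative phosphorylation, inherited defects of mitoribosomal proteins cause disease. The large subunit joins amino acids and holds the tunnel through which the new protein leaves. The small subunit binds the messenger RNA and reads its codons.

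By the known structure of the mitoribosome, 51 of the 78 genes encode proteins of the large subunit and 26 encode proteins of the small subunit. Mrps18a and Mrps30 are named after the small subunit but their products sit in the large one. The product of Mrps36 is a part of the alpha-ketoglutarate dehydrogenase complex and not of the ribosome, so 1 of the 78 was counted in neither subunit. A bacterial counterpart is known for 46 of the proteins and the naming system of the mitoribosome treats 31 as specific to mitochondria. Of the mitochondrially encoded genes, none of the 13 protein genes and none of the 2 ribosomal RNAs has a row in the count table, so the products of the mitoribosome were not analysed here.

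Library totals were 10552686 to 14597197 counts in brain and 10466198 to 15609040 in liver. Every one of the 78 genes passed the filter on low counts in each comparison. A single gene had 151 (Mrps28) to 1177 (Mrpl48) counts per brain library with a median of 393, and 111 (Mrps6) to 2867 (Mrpl12) counts per liver library with a median of 495. The tissue labels were checked against marker genes. Neuron markers summed to 5788 to 7790 normalised counts (CPM after TMM scaling within the tissue) in control brain and 6302 to 6618 in heat stress brain, and to 15.2 to 31.6 in liver. Hepatocyte markers summed to 69137 to 112700 in liver and to 2.51 to 15.0 in brain. Skeletal muscle markers summed to 404 in liver control 1 and 2310 in liver heat stress 2 against 1.21 to 7.26 in the other liver libraries, and 3 liver columns (control 2, heat stress 1 and heat stress 3) carry the suffix "2nd", whose meaning is not given. Exons of 26 of the genes share bases with another gene in the GENCODE M21 annotation, 15 of them over more than 10% of their length. The use of strand in counting is not named, so reads over those stretches may belong to the neighbour. This bears most on Mrpl53, whose exons lie wholly (100%) inside the same-strand gene Gm42688, on Mrps18b (59.1% shared with Gm16279 on the opposite strand) and on Mrps25 (58.2% shared with Nr2c2 on the opposite strand).

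In the brain, the summed level of the 78 genes was higher after heat stress. The sums were 2329, 2847 and 2443 normalised counts in the control libraries and 3089, 3384 and 2858 in the heat stress libraries. The groups did not overlap, although the highest control library and the lowest heat stress library lay close together. The control mean was 2540 ± 272 (SD, n = 3) and the heat stress mean 3110 ± 263, a ratio of 1.22. As a share of all counts, the genes took 0.253 ± 0.0195% in control brain, compared with 0.311 ± 0.0262% after heat stress. Liver control libraries summed to 3083, 4161 and 3287, and liver heat stress libraries to 3626, 2939 and 3707. There the groups overlapped, and the ratio of the means (3510 ± 573 and 3424 ± 422) was 0.975.

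**Figure D1:**
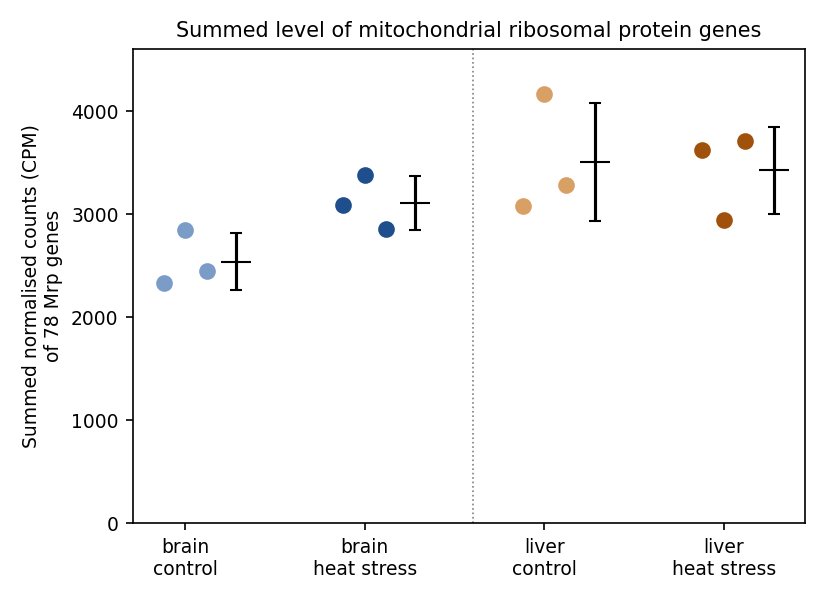
Summed normalised counts (CPM, TMM within each tissue) of the 78 mitochondrial ribosomal protein genes, with 1 point per library and the mean ± SD of each group of 3. The 3 heat stress brain libraries (2858 to 3384) lie above the 3 control brain libraries (2329 to 2847), whereas the liver groups overlap; brain and liver values are scaled separately and are not to be compared across the dotted line.

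Gene by gene, the brain difference was spread over nearly the whole set rather than carried by a few genes. The log2 fold change of heat stress over control was above 0 in 74 of the 78 genes, against 49.7% of all 14806 genes tested in brain, and its median was 0.27 against -0.003 for all genes. At an unadjusted p under 0.05, 29 of the 78 were higher and 0 were lower, where 10.0% of all genes were higher and 10.0% lower. The 3 heat stress libraries lay above all 3 control libraries for 29 of the genes and below them for 0, against 12.9% of all genes that lay above. None of the 78 passed an adjusted p of 0.05 in edgeR's quasi-likelihood test, as none of all genes did in either direction (0% higher and 0% lower), and the lowest adjusted p among them was 0.170. In DESeq2, where 2.44% of the genes with an adjusted p passed 0.05 as higher and 2.24% as lower, 4 of the 78 rose (Mrps18c, Mrpl20, Mrpl30 and Mrpl12) and 0 fell.

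The largest difference belonged to Mrps18c, which encodes a small-subunit protein with a bacterial S18 counterpart. Its gene lies at chr5:100798627-100804471 (GRCm38). Its normalised counts were 20.0, 35.0 and 24.4 in control brain, as against 43.9, 53.7 and 40.0 in heat stress brain. All heat stress libraries lay above all controls, with control 2 nearest to them. The log2 fold change was 0.80 (SE 0.20), from a mean of 26.5 ± 7.70 to 45.9 ± 7.06, with an adjusted p of 0.170 in edgeR's quasi-likelihood test and 0.0193 in DESeq2. Of its exon bases, 18.5% are shared with the same-strand gene Gm43511.

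Mrpl33, Mrpl47 and Mrpl30, all of the large subunit, came next. Mrpl33 (chr5:31596935-31664384) had 23.5, 33.9 and 25.5 normalised counts in control brain and 35.5, 54.0 and 35.6 in heat stress brain. The heat stress libraries were all higher, but 2 of them only just exceeded control 2. The log2 fold change was 0.60 (SE 0.20, adjusted p = 0.178 in edgeR's quasi-likelihood test). Exons of Mrpl33 share 22.4% of their bases with the same-strand gene Gm43809. The product of Mrpl47 (chr3:32725397-32737605) is the counterpart of bacterial L29, a protein at the rim of the exit tunnel. Control values of 12.5, 18.2 and 16.5 stood against heat stress values of 24.7, 28.1 and 18.4, so that heat stress 3 lay next to control 2. The log2 fold change was 0.59 (SE 0.19, adjusted p = 0.173 in edgeR's quasi-likelihood test). Exons of Mrpl47 share 13.4% of their bases with Actl6a on the opposite strand. Mrpl30 (chr1:37890477-37898535) was the most abundant of these, with 45.8, 70.0 and 56.7 in control against 81.9, 100.0 and 77.3 in heat stress. Its groups were clearly apart, and its log2 fold change of 0.59 (SE 0.17) had an adjusted p of 0.170 in edgeR's quasi-likelihood test and 0.0390 in DESeq2.

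At the other end, 4 genes had a log2 fold change below 0 in brain, and none of them differed beyond the spread between libraries. Mrpl38, a protein of the central protuberance at the head of the large subunit, had 38.5, 35.8 and 33.4 normalised counts in control and 34.9, 28.4 and 33.6 in heat stress. Its log2 fold change was -0.15 (SE 0.12, adjusted p = 0.496 in edgeR's quasi-likelihood test). Mrps2, of the small subunit, had 29.6, 25.4 and 24.9 against 24.3, 23.4 and 24.9. For Mrps2 the log2 fold change was -0.14 (SE 0.12, adjusted p = 0.528 in edgeR's quasi-likelihood test). For both genes the groups overlapped. Mrpl4 had 38.2, 34.5 and 37.3 against 33.1, 34.6 and 38.2, a log2 fold change of -0.05 (SE 0.11). Mrpl34 had 18.8, 20.4 and 16.8 against 20.0, 19.3 and 15.6, a log2 fold change of -0.03 (SE 0.15). The groups of these last genes were interleaved.

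**Figure D2:**
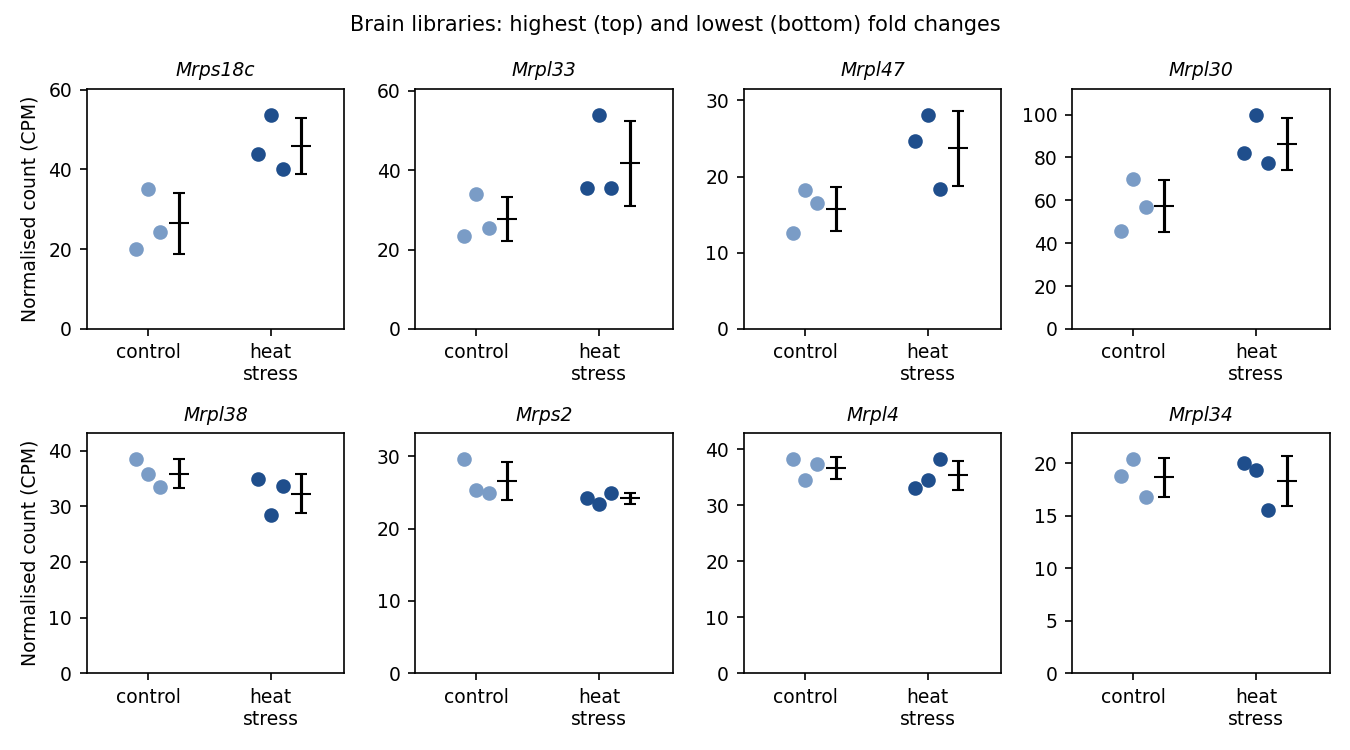
Normalised counts (CPM) in each control and heat stress brain library for the 4 genes with the highest log2 fold change (top row: Mrps18c, Mrpl33, Mrpl47, Mrpl30) and the 4 with the lowest (bottom row: Mrpl38, Mrps2, Mrpl4, Mrpl34), with 1 point per library and the mean ± SD of each group of 3; each panel has its own axis from 0. In the top row all heat stress points lie above all control points, and in the bottom row the groups overlap.

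The promoters of 4 of these genes, chosen after their letters had been seen, are shown because 3 belong to genes at the top of the brain order and 1 to a gene at its bottom, and because nuclear respiratory factor 1 (NRF1) and the ETS factor GABP are the textbook activators of nuclear genes for mitochondrial proteins. Each is 300 bases from the RefSeq table for GRCm38.p6, from 250 before the transcription start to 50 after it, written 5′ to 3′ on the strand of the gene. Capitals mark the letters GCGCATG, the core of an NRF1 motif, and CCGGAAG, the core of an ETS motif, on either strand (as CATGCGC or CTTCCGG where the match is on the other strand). The windows lie at chr5:100798509-100798808 (Mrps18c), chr5:31613701-31614000 (Mrpl33), chr1:37890227-37890526 (Mrpl30) and chr8:71464676-71464975 (Mrpl34), all on the plus strand.
Mrps18c: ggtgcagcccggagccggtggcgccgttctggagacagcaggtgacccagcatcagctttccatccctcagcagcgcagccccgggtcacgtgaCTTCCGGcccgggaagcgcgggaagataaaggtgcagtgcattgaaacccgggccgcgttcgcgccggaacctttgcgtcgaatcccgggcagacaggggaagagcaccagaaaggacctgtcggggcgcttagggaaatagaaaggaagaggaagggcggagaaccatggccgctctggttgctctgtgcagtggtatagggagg
Mrpl33: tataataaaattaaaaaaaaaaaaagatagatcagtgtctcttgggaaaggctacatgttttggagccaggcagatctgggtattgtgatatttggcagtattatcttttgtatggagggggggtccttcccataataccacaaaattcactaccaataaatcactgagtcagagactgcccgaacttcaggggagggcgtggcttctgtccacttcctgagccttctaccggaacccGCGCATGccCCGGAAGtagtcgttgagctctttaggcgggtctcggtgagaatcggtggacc
Mrpl30: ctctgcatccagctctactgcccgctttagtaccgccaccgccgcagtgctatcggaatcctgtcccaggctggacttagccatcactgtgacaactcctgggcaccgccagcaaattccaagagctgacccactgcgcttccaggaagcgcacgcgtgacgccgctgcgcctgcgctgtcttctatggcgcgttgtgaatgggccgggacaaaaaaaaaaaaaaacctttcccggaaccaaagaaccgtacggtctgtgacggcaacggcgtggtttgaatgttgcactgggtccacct
Mrpl34: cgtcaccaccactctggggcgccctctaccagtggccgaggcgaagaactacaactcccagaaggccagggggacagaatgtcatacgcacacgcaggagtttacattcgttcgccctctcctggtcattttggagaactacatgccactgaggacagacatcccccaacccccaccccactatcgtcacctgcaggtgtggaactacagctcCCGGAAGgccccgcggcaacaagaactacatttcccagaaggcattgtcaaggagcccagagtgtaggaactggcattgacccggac

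In these windows Mrps18c held the ETS letters on the other strand, starting 156 bases before the transcription start. Mrpl33 held the NRF1 letters 12 bases and the ETS letters 3 bases before the start, next to each other without overlap. Mrpl34 held the ETS letters 37 bases before the start, and Mrpl30 held neither. Mrpl47 and Mrps2, also among the named genes of the brain order but not shown, held neither as well. The table listed a promoter for 69 of the 78 genes. The ETS letters were in 25 of these 69 (36.2%), against 9.12% of all 27025 promoters in the table, and the NRF1 letters in 8 (11.6%), against 4.04%. Both were in 4 promoters and at least 1 of the 2 in 29. The median brain log2 fold change was 0.27 for the genes with the ETS letters and 0.28 for those without, and it was 0.23 with and 0.29 without the NRF1 letters. The difference between genes with and without the letters was not tested.

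By subunit, genes of both sides of the ribosome had log2 fold changes above 0 in brain, and the difference between the subunits was not tested. Of all genes, 49.7% were above 0 and 10.0% were higher at an unadjusted p under 0.05. In the large subunit, 48 of 51 genes had a log2 fold change above 0 and 23 were higher at an unadjusted p under 0.05, with a median of 0.29. In the small subunit, 25 of 26 were above 0 and 6 were higher at that p, with a median of 0.25. The summed normalised counts of the large subunit were 1773 ± 190 without and 2177 ± 177 with heat stress, a ratio of 1.23. Those of the small subunit were 748 ± 80.6 and 911 ± 83.7, a ratio of 1.22. By origin, 43 of the 46 genes with a bacterial counterpart were above 0 (16 at an unadjusted p under 0.05, median 0.31), as were 30 of the 31 mitochondria-specific genes (13 at that p, median 0.22).

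The L7/L12 stalk recruits translation factors, and 4 of the genes encode parts of it or of its base (Mrpl10, Mrpl11, Mrpl12 and Mrpl53). Their median log2 fold change was 0.45, and 3 of the 4 were higher at an unadjusted p under 0.05, where 10.0% of all genes were. Mrpl12, whose product is the stalk protein itself and also binds the mitochondrial RNA polymerase, had 50.5, 71.6 and 57.5 normalised counts in control against 89.2, 93.5 and 76.2 in heat stress. Its groups were apart, and its log2 fold change was 0.53 (SE 0.15), with an adjusted p of 0.170 in edgeR's quasi-likelihood test and 0.0413 in DESeq2. Exons of Mrpl12 share 15.2% of their bases with Gm16755 on the opposite strand. Mrpl11, at the base of the stalk, had 38.7, 48.8 and 36.7 against 56.5, 60.9 and 53.2, a log2 fold change of 0.46 (SE 0.13). Mrpl1, of the opposite L1 stalk beside the exit of spent transfer RNA, had 14.7, 22.9 and 19.7 against 26.8, 28.7 and 23.5, a log2 fold change of 0.47 (SE 0.17). In these 3 genes the lowest heat stress library exceeded the highest control. Mrpl10, which anchors the stalk, had 46.1, 49.7 and 46.5 against 48.7, 51.5 and 50.1, a log2 fold change of 0.08 (SE 0.10) with overlapping groups.

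For the exit tunnel and its rim, 7 genes were listed here (Mrpl17, Mrpl22, Mrpl23, Mrpl24, Mrpl44, Mrpl45 and Mrpl47). The list is not complete, and Mrpl4, which was below 0 in brain, was not on it. All 7 were above 0 and 4 were higher at an unadjusted p under 0.05, with a median log2 fold change of 0.30, where 49.7% of all genes were above 0 and 10.0% higher at that p. For the central protuberance 5 genes were listed (Mrpl18, Mrpl38, Mrpl40, Mrpl46 and Mrpl48), which is not a complete list either. Of these 5, 4 were above 0 and 1 was higher at that p, with a median of 0.22. Mrpl27, Mrpl52, Mrpl55 and Mrpl58 were assigned to no site, and of these all but Mrpl58 were higher at that p. In the small subunit, the genes listed for the channel by which messenger RNA enters (Mrps5 and Mrps24) did not reach that p. Neither did those listed for the channel by which it leaves (Mrps11, Mrps21 and Mrps28). The listed genes of both channels had log2 fold changes above 0. Mrps12, the protein of the decoding centre, had 29.8, 35.5 and 28.2 normalised counts against 28.7, 41.3 and 34.3, a log2 fold change of 0.16 (SE 0.16), and its groups overlapped.

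Among the other genes near the top, Mrpl20 had 53.2, 71.6 and 55.4 normalised counts in control brain and 83.7, 105.3 and 80.1 in heat stress brain. Its groups were apart, with a log2 fold change of 0.58 (SE 0.15) and an adjusted p of 0.0309 in DESeq2. Mrps22, a mitochondria-specific protein of the small subunit, had 18.7, 24.8 and 19.6 against 31.5, 32.8 and 26.3, a log2 fold change of 0.52 (SE 0.15). Its groups were apart too. Both genes that are named after the small subunit but belong to the large one had smaller differences. Mrps30 had a log2 fold change of 0.29 (SE 0.11) and Mrps18a one of 0.21 (SE 0.11), in both cases with groups that did not overlap. Mrps36, which is no ribosomal protein, had 17.3, 20.5 and 18.5 against 19.5, 26.3 and 21.8, a log2 fold change of 0.27 (SE 0.15) with overlapping groups.

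The genes of the set moved together from library to library, also inside a group. Brain control 2 held the highest of the 3 control values for 63 of the 78 genes, and brain heat stress 2 the highest heat stress value for 52. The lowest heat stress value came from heat stress 3 for 52 genes. The coefficient of variation between control brain libraries had a median of 13.0%, and that between heat stress brain libraries one of 11.1%. The genes are therefore not independent of each other, and the count of genes that were higher depended on single libraries. Against 29 with all 6 libraries, 16 were higher at an unadjusted p under 0.05 without control 1, 18 without control 3, 19 without heat stress 1 and 11 without heat stress 2. The share of all genes that were higher was also smaller in these fits than the 10.0% with all libraries, at 5.12%, 6.44%, 6.84% and 4.85% in the same order. The count was larger without control 2, at 43 (13.6% of all genes), and without heat stress 3, at 36 (9.66% of all genes). The median log2 fold change stayed between 0.21 and 0.35 when any 1 library was left out.

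Transcript length moved with the brain difference. Across all 14696 genes with a known length, the correlation of log2 exon length with the brain log2 fold change was -0.37, a description over genes that share the same 6 libraries. The 78 genes are short, with a median exon length of 1380.5 bases against 3379.5 for all genes. Among genes of at most 2000 bases, 75.5% of all 3302 and 49 of the 52 mitochondrial ribosomal protein genes had a log2 fold change above 0, with medians of 0.20 and 0.31. Among longer genes, 42.1% of all 11394 and 25 of the 26 mitochondrial ribosomal protein genes were above 0, with medians of -0.06 and 0.22. In finer bins of length the short genes lay closer to the median of all genes of their length. Under 750 bases the medians were 0.43 for the 10 mitochondrial ribosomal protein genes and 0.44 for all genes, from 750 to 1000 bases 0.41 and 0.34, from 1000 to 1500 bases 0.24 and 0.21, and from 1500 to 2000 bases 0.17 and 0.11. From 3000 to 4000 bases they were 0.42 (7 genes) and -0.02, and from 4000 to 6000 bases 0.19 (8 genes) and -0.08.

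**Figure D3:**
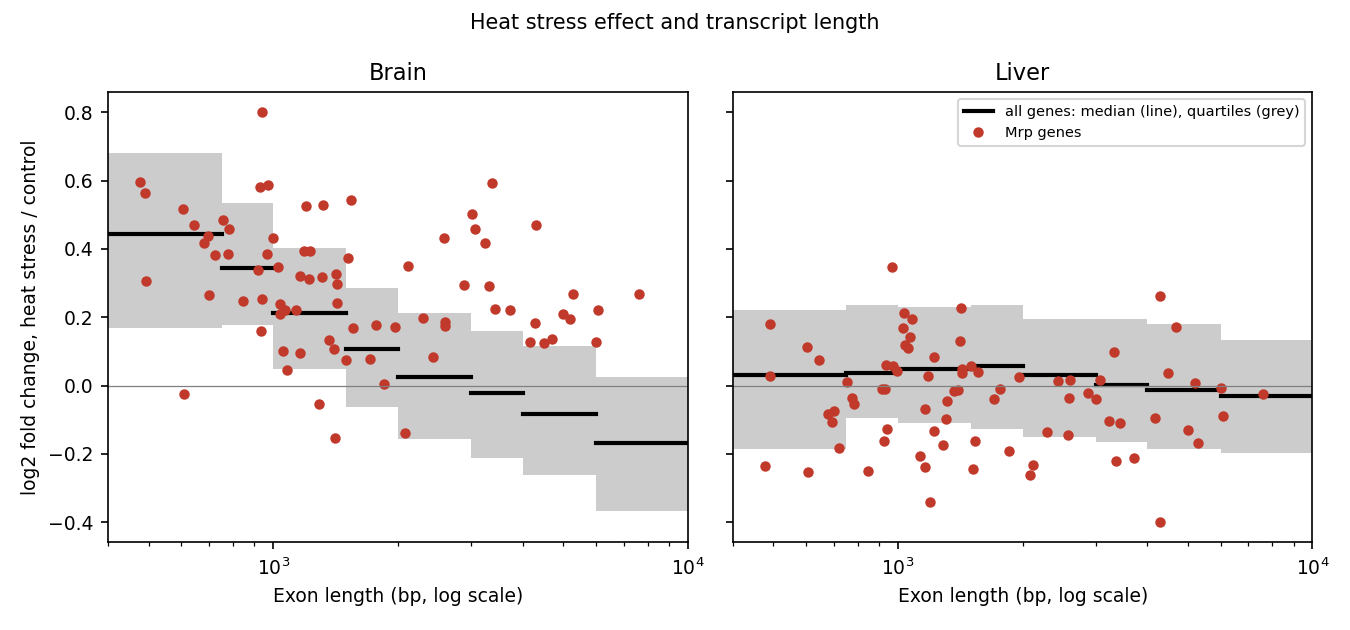
Log2 fold change of heat stress over control against exon length in bases (log axis) in brain and liver. Red points are the 78 mitochondrial ribosomal protein genes, and the line and band give the median and the quartiles of all tested genes in bins of length; in brain the all-gene median goes from 0.44 in genes under 750 bases to -0.17 in genes over 6000 bases, and most red points above 2000 bases lie over the line.

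With offsets for length and GC content fitted per library, the median brain log2 fold change of the 78 genes was 0.14 instead of 0.27. In that fit, 60 were above 0, 13 were higher at an unadjusted p under 0.05 (8 of them among the 29 above) and 1, Mrpl34, was lower, where 7.02% of all genes were higher and 5.43% lower. Mrpl47 kept a log2 fold change of 0.61 and Mrpl12 one of 0.42 with these offsets, while Mrps18c had 0.36, Mrpl30 had 0.23 and Mrpl33 had 0.06. Mrpl33 has an exon length of 478 bases, the smallest of the set. The single-gene order in brain thus changed with these offsets, in which length and GC content were not separated.

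The brain pieces also differed in their marker genes. The 8 striatum markers summed to between 425 and 780 normalised counts in control brain (median 429) and to between 784 and 1666 in heat stress brain (median 1091), and 4 of the 8 were higher without overlap between the groups, as were 12.9% of all genes. The 5 choroid plexus markers summed to between 76.0 and 136 in control and to between 29.8 and 58.3 in heat stress, and 3 of the 5 were lower without overlap, as were 1774 of all 14806 genes. The 6 cortex and hippocampus markers had sums with a median of 5620 in control and 4369 in heat stress. Their median log2 fold change was -0.38, and 0 of the 6 were apart between the groups. For the 4 astrocyte markers the median log2 fold change was -0.16, and 1 of the 4 was lower without overlap. None of these markers was at 0 in brain. The part of these markers in the difference of the mitochondrial ribosomal protein genes was not tested. In bulk tissue, fewer cells of a type and less RNA per cell cannot be told apart.

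Further genes of mitochondrial translation were described from lists of known members. All 5 of the other mitoribosome proteins, whose symbols do not begin with Mrp, had brain log2 fold changes above 0, with a median of 0.16. Of these, Chchd1 was highest at 0.77 (SE 0.28, adjusted p = 0.195 in edgeR's quasi-likelihood test), and Aurkaip1 had 0.36 (SE 0.17). Of 25 factors that assemble the mitoribosome, 23 were above 0 with a median of 0.15. For both lists, 49.7% of all genes above 0 is the value to compare with. At an unadjusted p under 0.05, where 10.0% of all genes were higher, 3 of the 25 were higher, a share near that of all genes. They were the GTPases Mtg1 (0.43, SE 0.13) and Gtpbp10 (0.59, SE 0.18) and the anti-association factor Malsu1 (0.55, SE 0.18), the last chosen after its values were seen.

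Genes that use the mitoribosome or its transfer RNAs lay on both sides of 0 in brain. Of all genes in brain, 49.7% were above 0, 10.0% were higher and 10.0% lower at an unadjusted p under 0.05. Of 17 translation factors measured, 8 were above 0, with a median log2 fold change of -0.03. The elongation factor Gfm1 was lower at an unadjusted p under 0.05 (-0.29, SE 0.13), and the release factor Mtrf1 had 0.35 (SE 0.15). Of 17 mitochondrial aminoacyl-tRNA synthetases, 8 were above 0, with a median of -0.007. Their smallest p-values belonged to Nars2 (0.28, SE 0.14) and Rars2 (0.23, SE 0.12), and 0 of the 17 reached an unadjusted p of 0.05 in either direction.

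Of 11 genes for transcription and replication of mitochondrial DNA, 7 were above 0 in brain, against 49.7% of all genes, with a median log2 fold change of 0.15. At an unadjusted p under 0.05, where 10.0% of all genes were higher, 2 of the 11 were higher. They were Ssbp1, the single-strand binding protein (0.31, SE 0.12), and Tfam, which packs and transcribes mitochondrial DNA (0.31, SE 0.14). Slirp, which stabilises mitochondrial messenger RNA, had 26.7, 42.0 and 36.0 normalised counts in control and 63.3, 81.3 and 54.7 in heat stress. Its groups were apart, and its log2 fold change was 0.93 (SE 0.19, adjusted p = 0.170 in edgeR's quasi-likelihood test). Of 10 regulators of mitochondrial biogenesis, 4 were above 0, against 49.7% of all genes. At an unadjusted p under 0.05, 1 regulator was higher and 1 lower, shares near those of all genes (10.0% higher and 10.0% lower). The higher one was Tfam, which is on both lists and was already counted above. Among the regulators Ppargc1a had a log2 fold change of -0.13 (SE 0.13), Nrf1 one of -0.09 (SE 0.12), Gabpa one of 0.09 (SE 0.11) and the coactivator Pprc1 one of -0.39 (SE 0.14).

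The brain ratio of the mitochondrial ribosomal protein genes was below that of the related nuclear sets. Their summed level was 1.22 times the control, against 1.32 times for nuclear oxidative phosphorylation subunits and 1.61 times for cytosolic ribosomal proteins. At an unadjusted p under 0.05, 50 of 79 tested genes of the former and 73 of 80 of the latter were higher, against 29 of the 78 mitochondrial ribosomal protein genes and 10.0% of all genes. No test of the difference between these sets was made. All 3 sets were measured in the same libraries.

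In the liver, heat stress was accompanied by no common direction of the mitochondrial ribosomal protein genes. The log2 fold change was above 0 in 32 and below 0 in 46 of the 78 genes, against 51.8% of all 12296 genes tested above 0, and the median was -0.024 against 0.011 for all genes. At an unadjusted p under 0.05 in edgeR's quasi-likelihood test, 0 of the 78 were higher and 0 were lower, where 2.97% of all genes were higher and 2.87% lower. At an adjusted p of 0.05 there were 0 of the 78 and none of all genes (0% higher, 0% lower). DESeq2 also called 0 of the 78, with 0.249% of its genes higher and 0.311% lower.

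The 4 genes with the highest liver log2 fold change were Mrpl23, Mrps26, Mrps9 and Mrps18a, and none passed the test. Mrpl23, at the exit tunnel, had 28.5, 36.1 and 29.0 normalised counts in control liver and 44.4, 28.9 and 45.7 in heat stress liver, where heat stress 2 lay at the control level. Its log2 fold change was 0.35 (SE 0.21, adjusted p = 0.930 in edgeR's quasi-likelihood test). Mrps26 had 22.5, 23.4 and 15.3 against 23.3, 22.2 and 28.1, a log2 fold change of 0.26 (SE 0.21). Mrps9 had 23.2, 26.3 and 28.3 against 28.1, 28.2 and 34.7, a log2 fold change of 0.23 (SE 0.17). Both overlapped between the groups. Mrps18a was the 1 gene of the set whose heat stress libraries (39.0, 35.8 and 43.5) all lay above its controls (34.3, 35.7 and 32.0), with the nearest libraries almost equal. Its log2 fold change was 0.21 (SE 0.16), and 5.38% of all genes had such groups.

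The lowest liver values belonged to Mrpl1, Mrps22, Mrps2 and Mrpl34. Mrpl1 had 32.3, 78.7 and 63.3 normalised counts in control against 50.3, 37.5 and 44.2 in heat stress, with control 1 below every heat stress library and a log2 fold change of -0.40 (SE 0.29, adjusted p = 0.938 in edgeR's quasi-likelihood test). Mrps22 had 27.7, 43.7 and 37.4 against 35.0, 25.6 and 25.2, a log2 fold change of -0.34 (SE 0.22). Mrpl1 and Mrps22 were thus among the higher genes in brain and among the lowest in liver. Mrps2 had 41.8, 33.2 and 34.9 against 31.6, 33.4 and 26.7, a log2 fold change of -0.26 (SE 0.17). Mrpl34 had 38.2, 52.3 and 29.4 against 32.8, 27.7 and 40.2, a log2 fold change of -0.25 (SE 0.23). All 4 overlapped between the groups.

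For 4 other genes (Mrps31, Mrps27, Mrpl39 and Mrpl19) the heat stress liver libraries all lay below the controls, as they did for 5.73% of all genes. Mrps31 had 38.7, 39.5 and 38.6 in control against 33.7, 35.2 and 29.7 in heat stress, and its control values were the closest together of these. Its log2 fold change was -0.25 (SE 0.16, adjusted p = 0.931 in edgeR's quasi-likelihood test).

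The sign of the liver median depended on single libraries. Control 2 held the highest control value for 65 of the 78 genes and control 1 the lowest for 49, while heat stress 2 held the lowest heat stress value for 57. The median log2 fold change was 0.092 without control 2 and 0.057 without heat stress 2, and -0.11 without control 1. Without both libraries that carried muscle transcripts (control 1 and heat stress 2) the median was -0.037, with 2 genes higher and 2 lower at an unadjusted p under 0.05, where 5.84% of all genes were higher and 4.57% lower. Within the libraries with the suffix "2nd" (1 control and 2 heat stress) the median difference was -0.19, and within those without it (2 control and 1 heat stress) it was -0.089. The medians of all genes were 0.003 and 0.019 in the same order, and 13 and 25 of the 78 genes were above 0. With the suffix as a covariate, chosen after the column names had been seen, the median was -0.14. With offsets for length and GC content, 4 genes were lower at an unadjusted p under 0.05 where 5.27% of all genes were.

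No gene of the further lists passed an adjusted p of 0.05 in liver in edgeR's quasi-likelihood test, and 51.8% of all genes were above 0. The median log2 fold change was -0.055 for the other mitoribosome proteins, where Ptcd3 had -0.16 (SE 0.16) and Dap3 had 0.10 (SE 0.15). It was -0.071 for the assembly factors, with 8 of 25 above 0; the RNA methyltransferases Mrm2 (-0.60, SE 0.26) and Mrm1 (-0.53, SE 0.28) had the smallest p-values. It was -0.10 for the translation factors, with 4 of 17 above 0, where Mtif2 had -0.27 (SE 0.17) and the membrane insertase Oxa1l had 0.34 (SE 0.27). Of the 17 aminoacyl-tRNA synthetases 6 were above 0, with a median of -0.13, and the smallest unadjusted p-values belonged to Ears2 (-0.57, SE 0.22) and Lars2. Lars2 had 3033, 718 and 863 normalised counts in control liver against 623, 844 and 688 in heat stress liver, so that its difference rested on control 1. Muscle markers summed to 404 in control 1 and to 2310 in heat stress 2, where Lars2 was near the remaining libraries. In control brain Lars2 had 1696, 6711 and 2824, far above the next synthetase listed, Iars2 (56.5 ± 7.57). The source of these Lars2 reads was not tested. For transcription and replication of mitochondrial DNA the median was -0.11, with Mgme1 at -0.48 (SE 0.20) and Tefm at -0.41 (SE 0.25). Of the biogenesis regulators 8 of 10 were above 0, led by Myc (1.49, SE 0.40, adjusted p = 0.465 in edgeR's quasi-likelihood test) and Ppargc1b (0.64, SE 0.24). Myc had 1.55, 2.04 and 5.22 normalised counts in control liver against 7.15, 9.41 and 7.73 in heat stress liver. Slirp had a liver log2 fold change of -0.20 (SE 0.35).

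**Figure D4:**
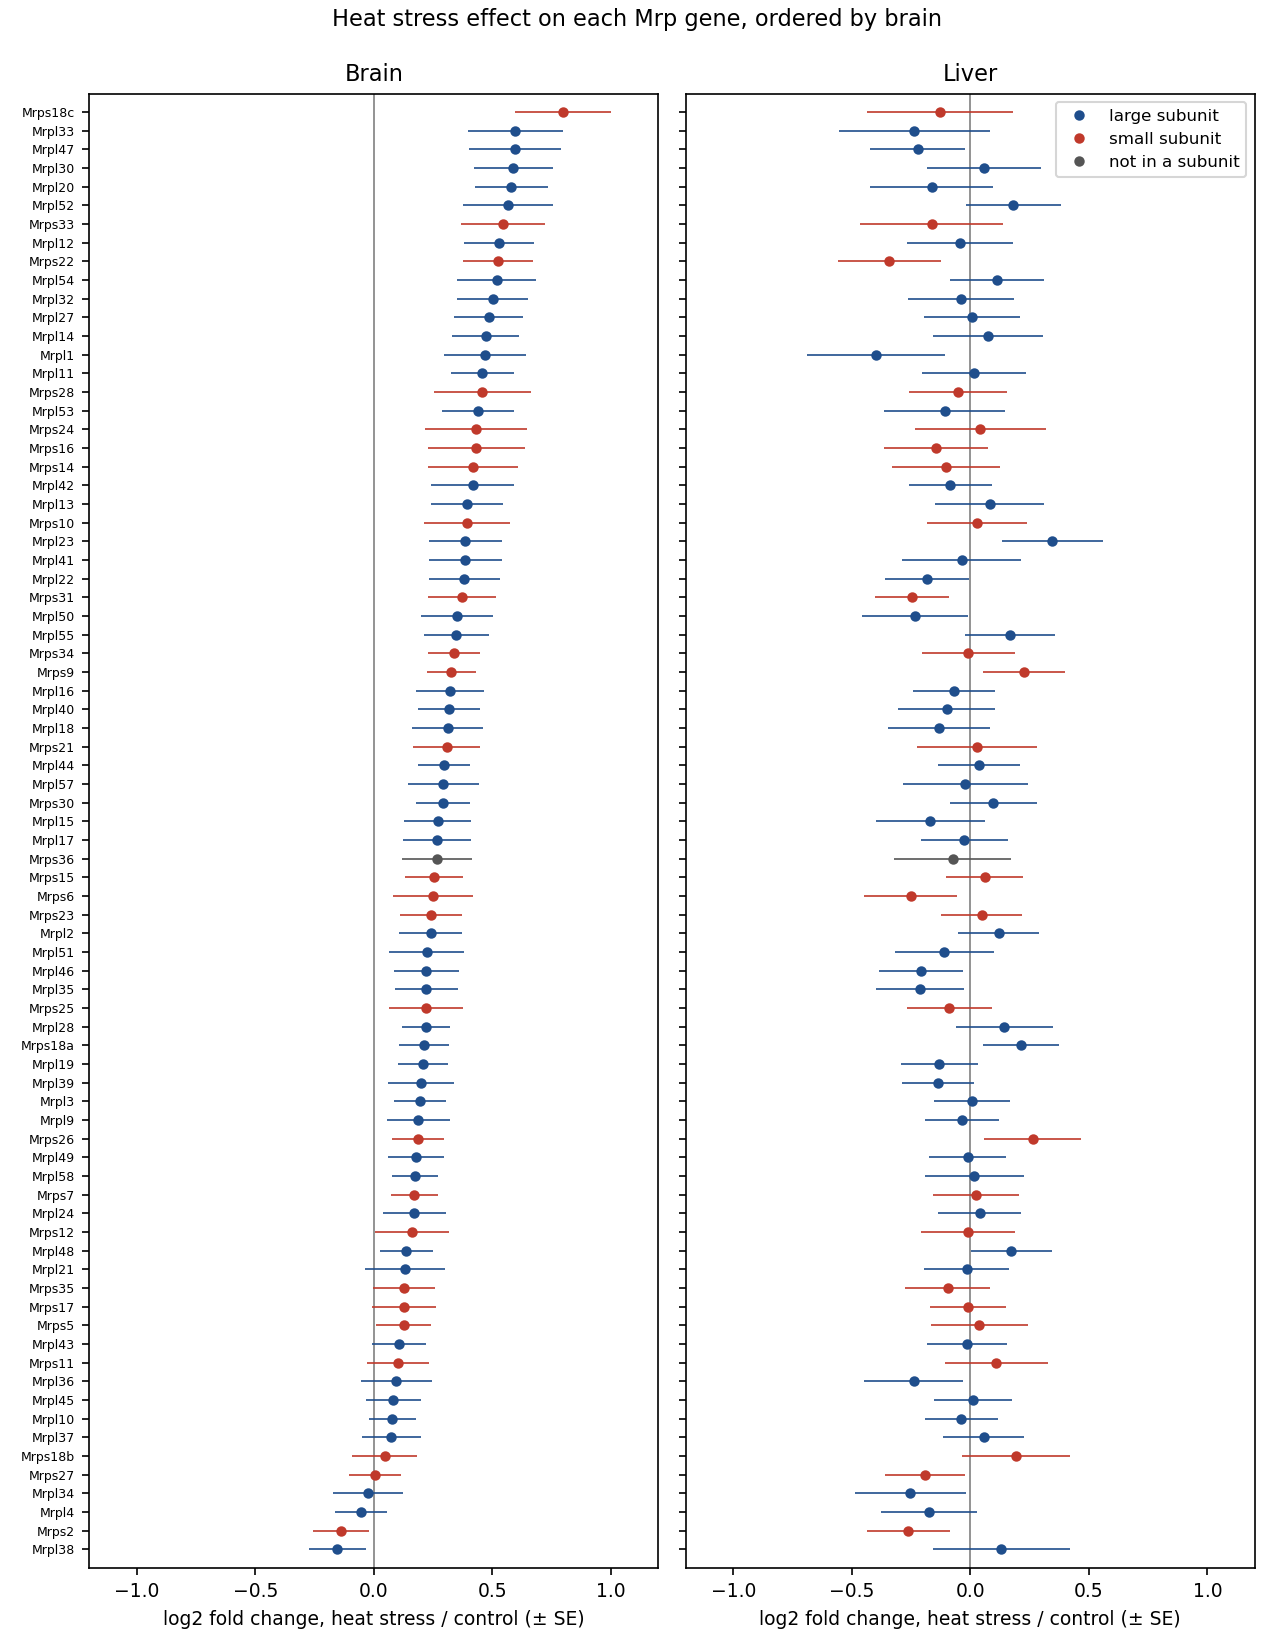
Log2 fold change of heat stress over control (± SE) of each of the 78 genes in brain and in liver, ordered by the brain value and coloured by subunit. In brain 74 of the 78 points lie to the right of 0, and in liver 32 do.

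Whether the effect of heat stress differed between the tissues was tested as liver minus brain in a fit of all 12 libraries. The median difference of the 78 genes was -0.32 against -0.04 for all genes, and 74 of the 78 were below 0, where 46.7% of all 15824 genes were above 0. At an unadjusted p under 0.05, 9 of the 78 had a lower effect in liver than in brain and 0 a higher one, where 5.91% of all genes were lower and 3.73% higher. None passed an adjusted p of 0.05 in edgeR's quasi-likelihood test (0.00632% of all genes were lower and 0% higher at that level). DESeq2 called 0 of the 78, where 0.141% of its genes were lower and 0.229% higher, a share near that of the 78. So a difference between tissues was not established for any single gene.

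The smallest p-values of that test belonged to Mrps22, Mrps31 and Mrpl47. The difference was -0.87 (SE 0.26) for Mrps22, -0.63 (SE 0.21) for Mrps31 and -0.82 (SE 0.28) for Mrpl47, each with an adjusted p of 0.516 in edgeR's quasi-likelihood test. In brain their log2 fold changes were 0.52, 0.37 and 0.59, and in liver -0.34, -0.25 and -0.22, so that the signs were opposite. Counts of genes with a lower effect in liver hung on single libraries. They were 2 without brain control 1, 3 without brain control 3, 3 without brain heat stress 1, 2 without brain heat stress 2, 19 without liver control 1, 4 without liver control 2, 16 without liver heat stress 1 and 4 without liver heat stress 2. The shares of all genes with a lower effect in liver were 2.83%, 2.98%, 3.09%, 2.71%, 7.64%, 5.14%, 7.34% and 4.89% in the same order. With offsets for length and GC content the count was 4, where 5.00% of all genes were lower, a share near that of the 78 genes.

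Between the tissues of control mice, the mitochondrial ribosomal protein genes took a smaller place in the brain transcriptome than in that of the liver. In that comparison, 72 of the 78 were lower in brain at an adjusted p of 0.05 in edgeR's quasi-likelihood test and 0 were higher, where 35.5% of all 15213 genes were lower and 42.8% higher. The median log2 fold change of brain over liver was -1.53, against 0.20 for all genes. The 3 brain libraries lay below all 3 liver libraries for 71 of the genes and above them for 1 (Mrpl3), against 37.1% and 44.4% of all genes. The size of this difference rested on the scaling. With library totals in place of TMM, the median of all genes was 1.30 and that of the 78 genes was -0.41, with 37 lower and 9 higher, where 19.3% of all genes were lower and 64.0% higher. Relative to the median of all genes, the median of the 78 genes was at -1.73 with TMM and at -1.72 with library totals on the log2 scale. A change of scaling moves all genes nearly alike, so these relative values could hardly differ and are no check on the scaling.

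The widest gap was that of Mrpl14, a large-subunit protein with a bacterial L14 counterpart (chr17:45686322-45698495). Per kilobase of exon, and with all 6 control libraries scaled together, its level was 17.0 ± 2.35 in brain, where it ran from 14.3 to 18.6, and 178, 245 and 172 in liver. The log2 fold change was -3.55 (SE 0.23, adjusted p = 5.37e-07 in edgeR's quasi-likelihood test). Mrpl12 (chr11:120484613-120489065) had 26.2, 36.9 and 30.1 per kilobase in brain and 195, 251 and 192 in liver, a log2 fold change of -2.78 (SE 0.23). No brain library of either gene came near a liver library. The other genes with a wide gap were Mrpl1 (-2.70, SE 0.31), Mrpl15 (-2.66, SE 0.20), Mrps24 (-2.60, SE 0.29) and Mrps28 (-2.58, SE 0.23).

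For 6 genes the difference between the tissues did not pass the test. Their log2 fold changes were -0.21 (Mrps6), -0.16 (Mrpl19), -0.05 (Mrps26), 0.04 (Mrps25), 0.22 (Mrpl48) and 0.24 (Mrpl3), with adjusted p-values from 0.192 to 0.844 in edgeR's quasi-likelihood test. Exons of Mrps6 share 36.1% of their bases with Gm49711 and 18.8% with Slc5a3 on the same strand, and those of Mrpl19 share 39.2% with Gcfc2 on the opposite strand. With Mrps25, 3 of these 6 thus overlap a neighbour over more than 10% of their length, as do 15 of all 78. Mrpl53 and Mrps18b, with 100% and 59.1% of their exon bases shared, did pass as lower in brain. A link between overlap and the tissue difference was not tested. The genes whose products sit outside the subunit of their name had log2 fold changes of -1.72 (Mrps30), -0.71 (Mrps18a) and -0.58 (Mrps36). Mrps18a and Mrps36 had 0.39 and 0.51 with library totals, which moved the median of all genes from 0.20 to 1.30. Both genes lay below that median in either scaling, but a change of scaling moves all genes nearly alike and could hardly alter this. With offsets for length and GC content Mrps18a and Mrps36 had 0.18 and 1.23, above the median of all genes of -0.19.

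Levels per length ranged widely inside each tissue. The divisor was the union of a gene's annotated exons. It was 3364 (Mrpl47) to 7605 (Mrpl17) bases in the lowest genes named below and 478 (Mrpl33) to 1316 (Mrpl12) in the highest. Mrpl17 had 427, 433 and 362 counts in control brain, where the median of the set over brain libraries was 393. The levels thus cannot be read against the single copy in which most of the proteins are present in the finished ribosome. In control brain the highest were Mrps21 (55.4 ± 7.65 normalised counts per kilobase, n = 3), Mrpl42 (48.5 ± 8.67), Mrpl41 (45.9 ± 6.76) and Mrpl20 (44.3 ± 7.13), which did not differ from their neighbours beyond their spread. The lowest were Mrps35 (2.85 ± 0.144), Mrpl17 (2.88 ± 0.423), Mrpl1 (3.03 ± 0.650) and Mrpl47 (3.20 ± 0.589), again within each other's spread. In control liver Mrpl12 (213 ± 32.8) and Mrpl14 (199 ± 40.1) were highest, followed by Mrpl33 (173 ± 58.6) and Mrps21 (151 ± 35.9). The lowest in liver were Mrps25 (4.17 ± 0.378), Mrpl19 (4.74 ± 0.435), Mrpl3 (6.11 ± 0.346) and Mrps26 (7.09 ± 1.74). The order of levels was largely shared by the tissues, with a Pearson correlation of 0.825 and a Spearman correlation of 0.845 of the log2 levels over the 78 genes, a description in which both axes share gene length.

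**Figure D5:**
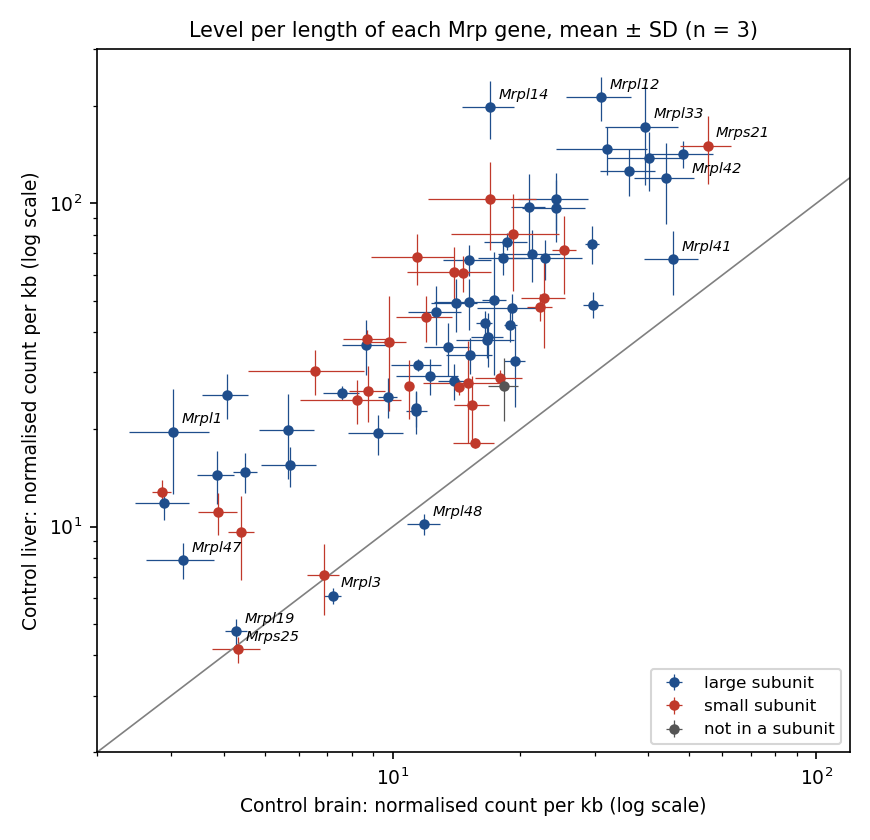
Level of each of the 78 genes per kilobase of exon (normalised counts, log axes) in control brain and control liver, mean ± SD of 3 libraries, coloured by subunit, with the line of equal levels. Nearly all points lie above the line; Mrpl14 and Mrpl12 stand farthest from it, and Mrps25 (4.30 in brain, 4.17 in liver), Mrpl3 and Mrpl48 lie on or below it.

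In heat stress mice the tissue difference was smaller but of the same direction. There 69 of the 78 genes were lower in brain and 1 was higher at an adjusted p of 0.05 in edgeR's quasi-likelihood test, with a median log2 fold change of -1.24, where 37.9% of all genes were lower and 43.1% higher. The change from -1.53 was not tested on its own and contains the same libraries as the heat stress comparisons above. With offsets for length and GC content, the control comparison gave a median of -0.76 against -0.19 for all genes, with 52 lower and 7 higher, where 44.7% of all genes were lower and 37.6% higher. Tissue and the way a tissue was homogenised cannot be told apart in this design.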

How the data were processed

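Brain and liver RNA was measured by stranded messenger RNA sequencing, with 3 libraries per group. The authors deposited raw read counts per gene symbol with 1 column per library, and 0 columns with values of a single library were left unused. The submitters' processing notes name FastQC 0.11.9, Trimmomatic 0.39, HISAT2 2.2.1, featureCounts of Subread 2.0.1, DESeq2 1.22.2 and the build mm10, whereas another passage of the study's methods names Tophat2 and HTSeq for alignment and counting. The annotation, the use of strand in counting and the handling of shared reads are not given in the sources used here. The authors also deposited tables of their own comparisons (mean, log2 fold change and p-values), which were not used.

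Per tissue, heat stress libraries were set against controls, and control brain against control liver, by edgeR's quasi-likelihood test (edgeR 4.0.16 in R 4.3.3; robust fit, TMM, filterByExpr at count 10 and total 15, Benjamini-Hochberg adjustment over all genes tested). The difference of the heat effects was the interaction contrast of all 12 libraries. The SE was taken as the size of the log2 fold change divided by the root of the F statistic. Normalised counts are CPM after TMM within a tissue, and levels per kilobase were divided by the exon length in GENCODE M21 (GRCm38). Length and GC offsets were fitted per library with mgcv 1.9.3 over 24708 genes. DESeq2 1.42.0, RLE scaling, library totals, no filter, a minimum count of 50, a replicate block, a fit of all libraries, muscle markers as a covariate and leaving out libraries were alternatives. The fit was tested on simulated data. Tables were made with Python 3.11.15, pandas 2.3.3 and numpy 2.4.6. The count totals per library set the precision, and p-values measure the spread between 3 and 3 libraries; the study gives 3 animals a group and names no pooling.

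The mitochondrial ribosomal protein genes, the further gene lists, the marker lists and the tests were chosen with earlier results of these data known. Named were the 4 genes of the set with the highest and the 4 with the lowest log2 fold change in each heat stress comparison and any at an adjusted p under 0.05, the 6 with the largest difference between tissues, the 3 with the smallest p for the difference of effects, the 4 highest and lowest per length in each tissue, those whose product sits outside the subunit of its name, Ppargc1a, Nrf1, Gabpa, Tfam and Slirp, and the 2 with the smallest p of each further list. Genes named for a site in the ribosome, for a call by DESeq2, for groups that do not overlap or for a shared exon were chosen after their values were seen. No protein sequences were used here.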

Additional observations from a re-analysis of the deposited data

How the results depend on the processing

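In brain, the median log2 fold change of the 78 genes was above 0 under every alternative run. It was 0.14 with length and GC offsets, without and with the replicate block. At an unadjusted p under 0.05, 13 and 14 genes were then higher (7.02% and 6.60% of all genes). Lower were 1 and 1 (5.43% and 4.88% of all genes). A fit of all 12 libraries gave 17 higher (5.04% of all genes), and leaving out single libraries gave 11 (without heat stress 2, 4.85% of all genes) to 43 (without control 2, 13.6%). At an adjusted p of 0.05, DESeq2 gave 4 higher (edgeR 0). Mrpl34 ran from -0.10 to 0.078 when single libraries were left out, above 0 without control 2 (0.039) and heat stress 3, and Mrps36 had -0.22 with the offsets, with and without the block. In liver, the offsets gave 4 lower, leaving out single libraries 0 to 1 higher and 0 to 4 lower (of all genes, 1.78% to 7.11% higher and 1.45% to 5.78% lower), leaving out both libraries with muscle transcripts 2 higher and 2 lower (5.84% and 4.57% of all genes), the muscle score as a covariate 1 higher (5.57%) and the suffix covariate 1 lower (517 of all 12296 genes). In liver, Mrps30 ran from -0.062 (without control 1) to 0.24 when single libraries were left out and had -0.048 without both muscle libraries, and Mrps36 ran from -0.23 to 0.16 (without control 2; 0.089 without heat stress 2) and had 0.0091 with the muscle covariate. Between the tissues, library totals in place of TMM gave 9 higher and 37 lower (median -0.41), the offsets 7 higher (median -0.76) and heat stress mice 1 higher (median -1.24), and leaving out single libraries gave medians of -1.63 to -1.37. Mrps18a had 0.39 and 0.18, and Mrps36 had 0.51 and 1.23, with library totals (median of all genes 1.30 instead of 0.20) and with the offsets (-0.19). For the difference of effects, the offsets gave 4 lower (5.00% of all genes), and 3 with the block (4.06%), shares near those of all genes. Leaving out single libraries gave 2 to 19 lower (2.71% to 7.64%) and 0 to 1 higher (2.03% to 11.3%). The cause was not tested in any of these. For the genes chosen by the naming rule, 13 recomputed values changed sign, 6 lost a call and 2 gained one, and 522 did none of these. Mrps36 lost its call between the tissues in DESeq2, in heat stress mice and without single libraries, and Mrps18c and Mrpl30 gained one in brain in DESeq2, as did Mrpl12 and Mrpl20, which the rule did not name for brain. Other single genes also turned with the offsets: in brain 60 instead of 74 were then above 0.

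The replicate numbers did not meet the rule for pairing (every correlation over 0.1): the correlations of same-numbered deviations were -0.29, 0.19 and -0.20 between the brain groups and -0.58, -0.51 and -0.09 between the liver groups. Between control brain and control liver they were 0.22, 0.18 and 0.09, each the highest for its library, a hint from the data and not the design, and between heat stress brain and heat stress liver 0.02, -0.12 and 0.01. The block gave 72 genes lower between the tissues (35.8% of all genes) and 6 lower, instead of 9, for the difference of effects (4.27% of all genes). With the number as a replicate block, 37 genes were higher in brain at an unadjusted p under 0.05 (9.84% of all genes), among them all 29 of the fit without it. In liver 0 reached that p, where 1.56% of all genes were higher and 1.05% lower.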
